A study of Mus musculus with 10 samples.

Results

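The 7 genes described here set the level of cyclic AMP (cAMP) in a cell or carry its signal on. They comprise the cyclic nucleotide phosphodiesterase genes Pde2a, Pde3b, Pde4b, Pde4d and Pde7a, the adenylyl cyclase gene Adcy7 and Prkaca, which encodes the catalytic alpha subunit of protein kinase A. The genes were chosen by name, with earlier results of these data known. All 7 were found among the 9690 genes of the deposited table through their Entrez identifiers. Poly(A) RNA was sequenced from unstimulated B cells of the spleen, taken from female mice of the C57BL/6J strain, at 50000 cells per library. Marginal zone B cells (MZB) with a knockout of LSD1 (KO) gave 2 libraries and wild-type MZB gave 3. Follicular B cells (FoB) with the knockout gave 3 libraries and wild-type FoB gave 2. LSD1 is the histone demethylase encoded by Kdm1a. MZB were gated as B220+ CD21hi CD1d+ and negative for CD23, and FoB as B220+ CD23+ CD21mid and negative for CD1d; both gates left out cells with Thy1.1, F4/80, CD11b, CD93 or GL7. No source used here gives the driver of the deletion, the age of the mice or whether each library is a mouse of its own. The p-values therefore weigh differences against the scatter of these libraries alone, part of which may be technical.

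Adenylyl cyclases make cAMP from ATP when receptors coupled to the stimulatory G protein are engaged, and phosphodiesterases (PDEs) break it down. The cAMP that remains releases the catalytic subunits of protein kinase A, which phosphorylate CREB and many other proteins, and it also opens the exchange factors named EPAC. In lymphocytes a rise of cAMP is known to dampen antigen receptor signalling. PDE2A is stimulated by cyclic GMP and hydrolyses both nucleotides, PDE3B is inhibited by cyclic GMP, and the PDE4 and PDE7 enzymes are specific for cAMP.

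The unit of the table is mRNA per cell, and whole reads could be recovered from it (4161051 to 6711847 per library). Summed over all genes, KO MZB held 105590 and 121071 mRNA per cell, wild-type MZB 74815 to 99800, KO FoB 43562 to 55704 and wild-type FoB 45237 to 56438. A difference per cell therefore carries this gap in total mRNA. The totals of KO and wild-type MZB did not overlap, nor did those of MZB and FoB. A gene whose groups do not overlap per cell carries this gap as well. The share of all genes without overlap was not counted. Each comparison was also made after rescaling, in which every library is divided by a trimmed mean of its log-ratios to the mean library. Kdm1a had rescaled values of 3.48 and 3.37 in KO MZB, against 5.63, 5.68 and 5.83 in wild-type MZB, and of 3.01, 3.1 and 3.1 in KO FoB, against 7.0 and 6.84 in wild-type FoB. KO over wild type was -0.69 in MZB and -1.1 in FoB on the rescaled log2 scale, both called by limma, and -0.39 per cell in MZB, which did not pass (adjusted p = 0.118); no source used here gives the exons removed. Between the wild-type groups after rescaling, 25% of all genes were called higher in MZB and 25.1% lower. Of 11 MZB marker genes 10 were higher and 1 was lower, while of 8 FoB marker genes 6 were lower and 1 was higher. These lists include Cr2, Cd1d1 and Fcer2a, the genes of CD21, CD1d and CD23. The cells were gated on those 3 proteins, so these genes are not independent of the sort. All 7 B cell markers are in the table. Of 66 markers of 9 other cell types it lists 10, of which 5 (Lck, Flt3, Cst3, Itgb3 and Pecam1) were higher in KO than in wild-type MZB on both scales. In that comparison 13.3% of all genes were called higher per cell and 3.38% after rescaling.

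The members lie on mouse chromosomes 3, 4, 7, 8 and 13 in GRCm38.p6, the assembly of mm10. Pde2a spans chr7:101421691-101512829 and Pde3b chr7:114415222-114537938, both on the plus strand. Pde4b spans chr4:102087332-102607275 and Pde4d chr13:108654177-109955969, both on the plus strand. Pde7a lies on the minus strand at chr3:19223108-19311322, and the plus-strand genes Adcy7 and Prkaca lie at chr8:88272190-88329965 and chr8:83972978-83996444. The values are per gene, so the isoforms of each PDE gene, which start at different promoters, cannot be told apart, and reads of Pde7a cannot be told from those of its antisense gene Gm16093, since no source used here gives the strand setting of the counting. On its own strand Pde2a overlaps the protein-coding gene Gm45837, and Pde4d the pseudogene Rps3a3. Kdm1a overlaps Luzp1 on the other strand and the pseudogene Gm12987 on its own. None of these is in the table, and reads from shared stretches cannot be told apart.

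RefSeq promoters, each with 250 bases before and 50 after a transcript start, were matched for 5 of the 7 members (Pde2a, Pde4b, Pde4d, Adcy7 and Prkaca), 15 promoters in all. They were searched on both strands for the cAMP response element bound by CREB, TGACGTCA, and for its core TGACG, which is contained in the full element. The full element was in 0 of the 15 and in 1.79% of all 32851 promoters of the table. The core was in 4 of the 15 and in 20.81% of all promoters. A match describes letters and not a bound site. Shown are 1 promoter each of the members with the lowest and the highest level in MZB relative to FoB, Pde2a and Pde4d, and of Pde4b, the close relative of Pde4d that did not share its pattern. The core is in 1 of the 5 Pde2a promoters and in 1 of the 4 Pde4b promoters, and those were chosen to be shown because they hold it; the 1 Pde4d promoter does not. Capitals mark the core, read as CGTCA where the match is on the other strand.
Pde2a, chr7:101450270-101450569, plus strand: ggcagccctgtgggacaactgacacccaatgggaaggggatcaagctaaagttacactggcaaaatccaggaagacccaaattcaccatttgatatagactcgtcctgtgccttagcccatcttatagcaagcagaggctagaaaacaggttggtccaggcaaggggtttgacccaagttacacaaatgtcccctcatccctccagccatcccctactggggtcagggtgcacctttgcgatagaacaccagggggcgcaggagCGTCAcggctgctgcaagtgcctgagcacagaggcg
Pde4d, chr13:108653927-108654226, plus strand: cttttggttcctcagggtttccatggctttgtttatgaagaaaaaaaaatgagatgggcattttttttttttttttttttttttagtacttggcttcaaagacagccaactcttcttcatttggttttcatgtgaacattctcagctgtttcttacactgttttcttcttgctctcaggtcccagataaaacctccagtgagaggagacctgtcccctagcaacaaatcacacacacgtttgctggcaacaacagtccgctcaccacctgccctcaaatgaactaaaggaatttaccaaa
Pde4b, chr4:102421305-102421604, plus strand: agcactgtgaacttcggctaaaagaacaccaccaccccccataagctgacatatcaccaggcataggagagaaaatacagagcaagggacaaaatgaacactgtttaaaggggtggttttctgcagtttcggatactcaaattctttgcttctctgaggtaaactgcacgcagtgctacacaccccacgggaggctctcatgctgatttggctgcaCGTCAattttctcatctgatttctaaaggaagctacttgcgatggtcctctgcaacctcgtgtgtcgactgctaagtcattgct

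The sharpest contrast among the 7 genes lay between the cell types and not between the genotypes. MZB held much less Pde2a and much more Pde4d than FoB, in KO and wild-type cells alike. In the comparison of KO MZB with KO FoB, all 7 passed the test per cell, 6 higher and 1 lower in KO MZB than in KO FoB, where 97.3% of all 9690 genes were called higher and 0.444% lower. After rescaling 4 passed, Pde4d and Adcy7 higher and Pde2a and Pde4b lower, beside 18.1% and 17.2%. The test was limma on log2(value + 0.3) over all 10 libraries, two-sided, with Benjamini-Hochberg adjustment over all genes and a threshold of 0.05, and all log2 differences here are on that scale.

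Between wild-type MZB and wild-type FoB, 6 of the 7 genes passed the test per cell, 5 of them higher and 1 lower in MZB, where 84.2% of all genes were called higher and 1.67% lower. After rescaling 6 passed, 3 higher (Pde4d, Pde3b and Adcy7) and 3 lower (Pde2a, Pde4b and Prkaca), beside 25% of all genes higher and 25.1% lower. The median log2 difference of all genes was 1.13 per cell in the knockout and 0.78 per cell in the wild type, and 0.0015 and 0.0023 after rescaling. These comparisons share libraries with those between genotypes and are not independent of them. Between genotypes, the members called on at least 1 scale were Pde2a and Pde4d, both in MZB. In MZB 1 of the 7 passed per cell, higher in KO (Pde2a; 13.3% of all genes higher and 0.702% lower), and 2 passed after rescaling, Pde2a higher and Pde4d lower (beside 3.38% higher and 1.87% lower). In FoB 0 of the 7 passed limma's test at an adjusted p of 0.05 on either scale, where 0.712% of all genes per cell and 0.599% after rescaling did. At an unadjusted p under 0.05, 0 of the 7 passed per cell in FoB, where 373 of all 9690 genes did, and 1 passed after rescaling, where 1413 did, a share near that of all genes.

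**Figure D1:**
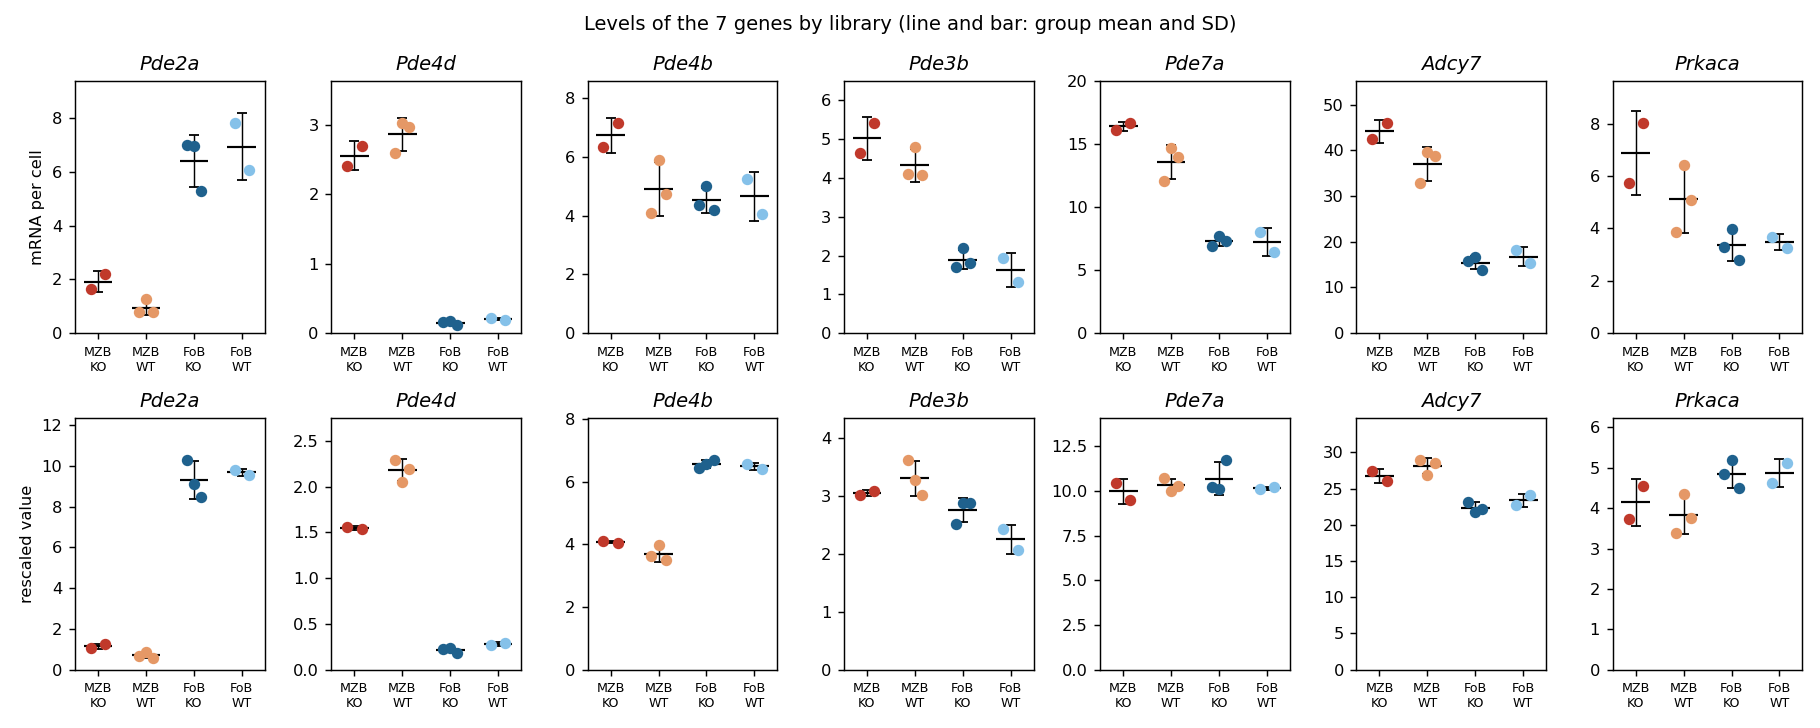
Levels of the 7 genes in each of the 10 libraries, as mRNA per cell (upper row) and as rescaled values (lower row); points are libraries, lines and bars the group mean and SD (n = 2 for KO MZB and wild-type FoB, n = 3 for wild-type MZB and KO FoB). All 5 MZB libraries lie below all 5 FoB libraries for Pde2a and above them for Pde4d on both scales.

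Pde2a, the PDE that cyclic GMP stimulates, was the member most restricted to FoB. It had 1.64 and 2.19 mRNA per cell in KO MZB and 0.767, 1.26 and 0.783 in wild-type MZB. In KO FoB it had 6.99, 6.95 and 5.28 mRNA per cell, and 7.82 and 6.07 in wild-type FoB. On both scales the FoB groups overlapped each other and stood apart from both MZB groups. KO MZB stood above wild-type MZB without overlap, per cell and after rescaling. These values rest on 132 and 192 reads in KO MZB, 104, 127 and 74 in wild-type MZB, 938, 1103 and 1068 in KO FoB and 1300 and 1070 in wild-type FoB. In the knockout Pde2a was 3.35-fold lower in MZB per cell and 8.07-fold lower after rescaling (log2 differences -1.6 ± 0.19 and -2.72 ± 0.12, SE; limma adjusted p = 6.96e-12 and 4.84e-08). In wild-type cells Pde2a averaged 0.936 ± 0.279 mRNA per cell in MZB (SD, n = 3) and 6.95 ± 1.24 in FoB (SD, n = 2), 7.42-fold lower in MZB (log2 difference -2.56 ± 0.19, SE; limma adjusted p = 2.79e-21). After rescaling the gap in wild-type cells was 13.8-fold (-3.32 ± 0.12; limma adjusted p = 6.90e-09).

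Within MZB, Pde2a was 2.04-fold higher per cell in KO than in wild-type cells, at a log2 difference of 0.85 ± 0.19 (SE; limma adjusted p = 0.00103). After rescaling it had 1.06 and 1.24 in KO MZB and 0.679, 0.855 and 0.577 in wild-type MZB, 1.64-fold higher in KO (0.54 ± 0.12; limma adjusted p = 0.0312), against a median of all genes of 0.32 per cell and 0.019 rescaled. Both KO libraries were above all 3 wild-type libraries on both scales, and KO MZB still held several times less Pde2a than either FoB group. In FoB the log2 difference of KO over wild type was -0.11 per cell, with a 95% interval of -0.49 to 0.27, and -0.062 rescaled, with an interval of -0.33 to 0.21. The knockout effect in MZB exceeded that in FoB by 0.96 ± 0.27 on the log2 scale per cell (limma adjusted p = 0.0358; 2.02% of all genes were called higher), and by 0.60 ± 0.17 after rescaling, which did not pass (limma adjusted p = 0.09999; 0.31% of all genes were called, and 0 of the 7 members). The call per cell was lost without KO MZB library 2 (0.78), wild-type MZB library 1 (0.87), wild-type MZB library 3 (0.88), KO FoB library 3 (0.84) or wild-type FoB library 1 (0.79), and with a pseudocount of 1 (0.69).

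The rise of Pde2a in KO MZB rested on few libraries. Without KO MZB library 2 its log2 difference per cell was 0.67 and no longer passed (limma adjusted p = 0.169; range over the alternatives 2.31e-05 to 0.169). The rescaled difference lost its call without KO MZB library 1 (0.63), KO MZB library 2 (0.45), wild-type MZB library 1 (0.53) or wild-type MZB library 3 (0.45), and with a pseudocount of 1 (0.34). FoB markers moved with it: of 8 FoB marker genes, 5 were higher in KO MZB per cell, beside 13.3% of all genes. After rescaling 4 were higher and 1 lower, beside 3.38% and 1.87% of all genes. The summed rescaled level of the 8 was 180.0 and 188 in KO MZB and 168, 182 and 168 in wild-type MZB, against 374 to 399 in the FoB libraries. Of 11 MZB marker genes, 4 were lower in KO MZB after rescaling, beside 1.87% of all genes. The sum of the 11 was 379 and 365 in KO MZB and 447, 421 and 461 in wild-type MZB. Much of that sum was Cr2, at 162 and 153 in KO MZB and 215, 195 and 208 in wild-type MZB. The median rescaled log2 difference of the 11 was -0.39. Of the 10 markers of other cells in the table, Lck, Flt3, Cst3, Itgb3 and Pecam1 were higher in KO MZB as well. The NK cell, macrophage and plasma cell genes were not called (rescaled medians -0.25, -0.17 and -0.038). The dendritic cell genes Flt3 and Cst3 summed to 12.7 and 15 in KO MZB and 9.37, 9.46 and 9.11 in wild-type MZB. Most of that sum was Cst3, at 11.4 and 13.7 in KO MZB. Of the 8 genes of that list 2 are in the table. The part of these shifts in the rise of Pde2a was not tested, and in bulk samples a different share of cells and a different amount of RNA per cell cannot be told apart.

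Pde4d, a cAMP-specific PDE whose short isoforms are known to be induced by cAMP itself, showed the opposite pattern. KO MZB held 2.41 and 2.7 mRNA per cell and wild-type MZB 2.59, 3.03 and 2.97. KO FoB held 0.154, 0.179 and 0.116 mRNA per cell and wild-type FoB 0.213 and 0.189. Every MZB library lay above every FoB library, while the 2 MZB groups overlapped per cell. The recovered reads numbered 356 and 435 in KO MZB, 645, 560 and 516 in wild-type MZB, 38, 52 and 43 in KO FoB and 65 and 61 in wild-type FoB. In the knockout Pde4d was higher in MZB, 17.1-fold per cell and 7.16-fold rescaled (log2 differences 2.67 ± 0.18 and 1.84 ± 0.10). Wild-type MZB averaged 2.86 ± 0.236 and wild-type FoB 0.201 ± 0.0173 mRNA per cell (SD, n = 3 and 2), 14.3-fold higher in MZB, and the rescaled ratio was 7.72. The log2 differences were 2.66 ± 0.18 per cell and 2.09 ± 0.10 rescaled (SE; limma adjusted p = 1.84e-23 and 6.18e-08), and they understate the ratio because the FoB values lie below the pseudocount.

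Between genotypes, Pde4d did not pass per cell in MZB (log2 difference -0.15, 95% interval -0.51 to 0.22). Rescaled, it was 1.56 and 1.53 in KO MZB and 2.29, 2.05 and 2.19 in wild-type MZB, 1.41-fold lower in KO without overlap (-0.42 ± 0.10; limma adjusted p = 0.0394). This fall just passed: the call was lost when any of the 5 MZB libraries was left out, at log2 differences of -0.46 to -0.39, and also with a pseudocount of 0.1 (-0.47) or a floor of 1 mRNA per cell (-0.42). The MZB markers above fell in the same libraries, and their part was not tested. In FoB both KO and wild-type values were low, with KO below wild type in all libraries and a log2 difference of -0.16 per cell (interval -0.52 to 0.21) and -0.18 rescaled (interval -0.40 to 0.049); neither passed.

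The ratio of Pde2a to Pde4d within a library needs no scale between libraries. It was 0.68 and 0.81 in KO MZB and 0.296, 0.416 and 0.263 in wild-type MZB. It reached 45.3, 38.9 and 45.6 in KO FoB and 36.7 and 32.2 in wild-type FoB. Pde4d transcripts thus outnumbered those of Pde2a in all 5 MZB libraries and were outnumbered by them in all 5 FoB libraries, with KO MZB between wild-type MZB and FoB.

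Pde4b, which encodes the other main cAMP-specific PDE4 of leukocytes, did not follow Pde4d. It had 6.32 and 7.16 mRNA per cell in KO MZB and 4.1, 5.89 and 4.75 in wild-type MZB. In KO FoB it had 4.37, 5.0 and 4.19 mRNA per cell, and in wild-type FoB 5.24 and 4.07. The KO MZB libraries were the highest of the 10, and the other 3 groups overlapped. In the knockout the sign depended on the scale, with 0.55 ± 0.19 per cell and -0.65 ± 0.071 rescaled for MZB over FoB (limma adjusted p = 0.00536 and 3.80e-05). Without KO MZB library 2 the value per cell was 0.46 and did not pass. Wild-type MZB and FoB did not differ detectably per cell, with a log2 difference of 0.069 and an interval of -0.31 to 0.45, against a median of all genes of 0.78. Relative to the other genes Pde4b was lower in wild-type MZB: rescaled values were 3.62, 4.0 and 3.5 in wild-type MZB and 6.57 and 6.41 in wild-type FoB, a log2 difference of -0.76 ± 0.071 (limma adjusted p = 7.86e-06). KO over wild type did not pass in MZB, at 0.45 per cell (interval 0.067 to 0.82) and 0.13 rescaled; without wild-type MZB library 2 the value per cell was 0.58 and passed.

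Pde3b, which encodes the PDE that cyclic GMP inhibits, was higher in MZB. Its values were 4.63 and 5.42 mRNA per cell in KO MZB and 4.09, 4.81 and 4.08 in wild-type MZB. They were 1.71, 2.18 and 1.8 mRNA per cell in KO FoB and 1.93 and 1.31 in wild-type FoB. The genotypes overlapped within each cell type and the cell types did not overlap. Between KO MZB and KO FoB it passed per cell (1.28 ± 0.19) but not after rescaling (0.13 ± 0.10, interval -0.088 to 0.35). Wild-type MZB had 2.67-fold more per cell than wild-type FoB and 1.47-fold more after rescaling, with log2 differences of 1.28 ± 0.19 and 0.50 ± 0.10 (limma adjusted p = 6.68e-09 and 0.00181). In FoB its rescaled values were 2.52, 2.87 and 2.88 with the knockout and 2.43 and 2.07 in the wild type, which did not overlap, but the log2 difference of 0.26 (interval 0.044 to 0.48) did not pass after adjustment (limma adjusted p = 0.283).

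Pde7a, a high-affinity cAMP-specific PDE, was the most abundant PDE transcript per length in 9 of the 10 libraries; in KO FoB library 1, Pde2a was level with it. It had 16.1 and 16.7 mRNA per cell in KO MZB and 12.1, 14.7 and 14 in wild-type MZB. FoB held 6.94, 7.68 and 7.32 mRNA per cell in KO and 8.04 and 6.46 in the wild type. MZB libraries were all higher than FoB libraries, by about as much as the median gene. Per cell the log2 differences of MZB over FoB were 1.14 ± 0.19 in the knockout and 0.88 ± 0.19 in the wild type, both called, beside medians of all genes of 1.13 and 0.78. Rescaled values of neighbouring groups overlapped throughout, and the rescaled differences were -0.10 in the knockout (interval -0.27 to 0.078) and 0.026 in the wild type (interval -0.15 to 0.20). KO over wild type did not pass in MZB (-0.051 rescaled, interval -0.22 to 0.12) or in FoB (0.070 rescaled, interval -0.10 to 0.24).

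**Figure D2:**
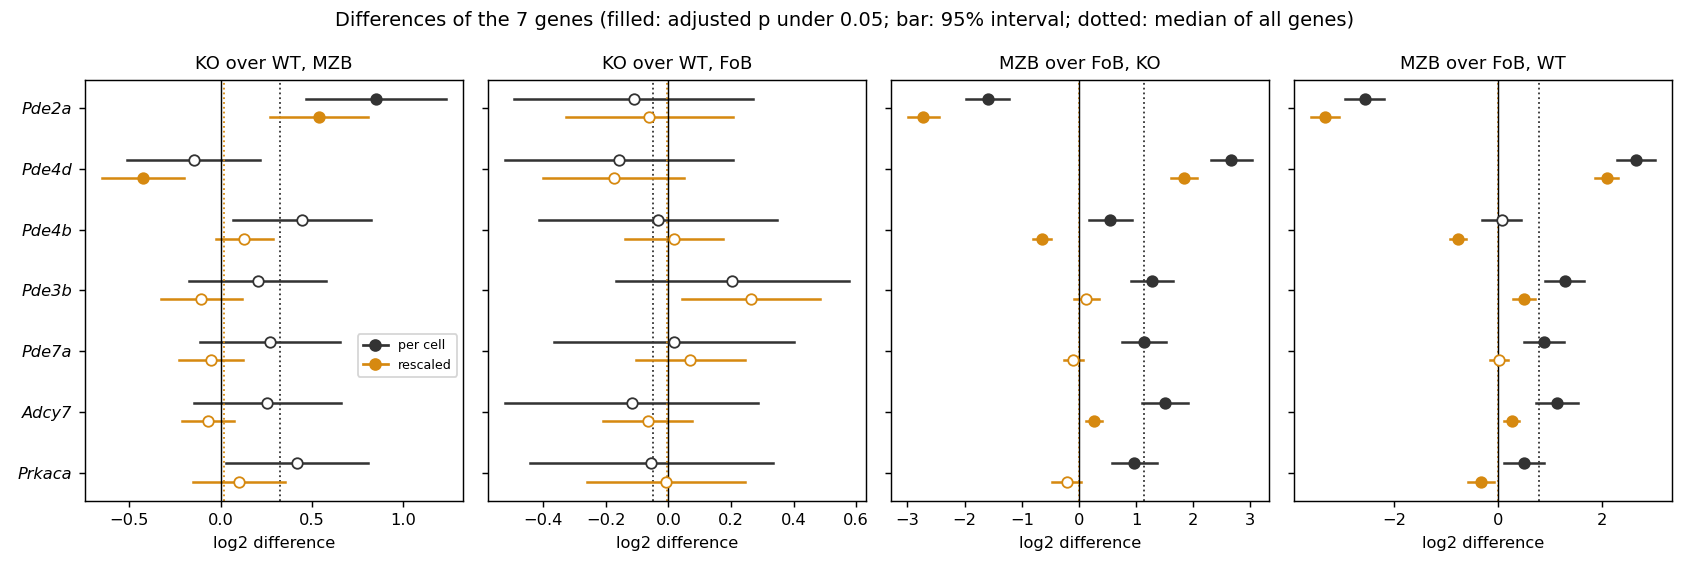
Log2 differences of the 7 genes in 4 comparisons on the log2(value + 0.3) scale, per cell (black) and rescaled (orange), with 95% intervals; filled points passed an adjusted p of 0.05 and dotted lines mark the median of all genes. Pde2a and Pde4d lie farthest from 0 between the cell types, on opposite sides, and within the knockout the scales give opposite signs for Pde4b, Pde7a and Prkaca.

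The whole set of PDE transcripts took a similar share of the mRNA in every group while its make-up differed. The table lists 9 of 24 PDE genes, 8 of which encode catalytic PDEs (Pde1b, Pde4a and Pde8a beside the 5 members; Pde6d, a prenyl-binding subunit, was left out). Together these 8 had 53.5 and 57.8 mRNA per cell in KO MZB and 38, 46.2 and 43.4 in wild-type MZB, 25.5, 26.8 and 23 in KO FoB and 27.9 and 22.1 in wild-type FoB. As a percentage of all mRNA they held 0.0507 and 0.0477 in KO MZB, 0.0507, 0.0463 and 0.047 in wild-type MZB, 0.053, 0.0481 and 0.0528 in KO FoB and 0.0494 and 0.0488 in wild-type FoB, so the groups overlapped. Of the PDE transcripts, Pde2a made up 3.06 and 3.79% in KO MZB and 2.02, 2.72 and 1.81% in wild-type MZB, but 27.4, 26 and 23% in KO FoB and 28 and 27.5% in wild-type FoB. Pde4d made up 4.5 and 4.67% in KO MZB, 6.83, 6.55 and 6.86% in wild-type MZB, 0.605, 0.667 and 0.504% in KO FoB and 0.764 and 0.854% in wild-type FoB. Mean shares in wild-type MZB and FoB were 13.2% and 2.0% for Pde4a, 12.8% and 2.9% for Pde8a and 10.2% and 6.44% for Pde3b. Pde4b had a lower share in wild-type MZB, 11.5% against 18.6% in wild-type FoB. The share of Pde7a stayed between 27.2% and 32.2% in all 10 libraries. Shares of 1 pool are tied, so a lower share of 1 gene raises those of others. These shares compare values that act as reads per length, and they were not tested.

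**Figure D3:**
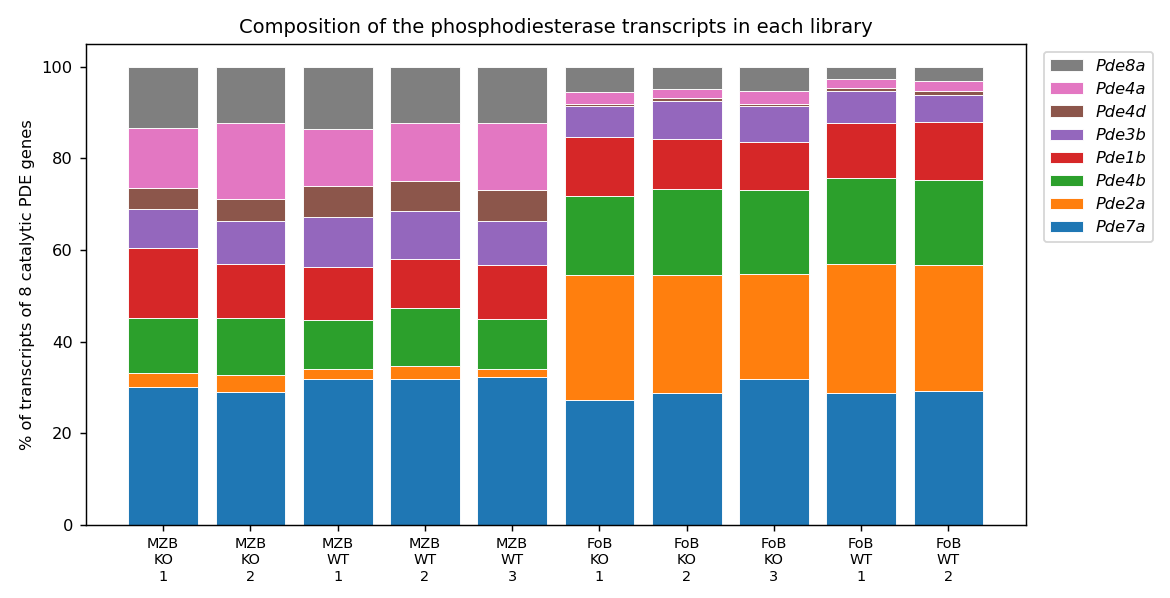
Share of each of 8 catalytic PDE genes in their summed mRNA per cell, in percent, for each of the 10 libraries. Pde2a fills 23.0% to 28% of the bars of FoB libraries and 1.81% to 3.79% of those of MZB libraries, where Pde4a, Pde8a and Pde4d are wider.

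Adcy7, known as a main adenylyl cyclase of lymphocytes, was the member with the highest level. It had 42.4 and 46 mRNA per cell in KO MZB and 32.8, 39.6 and 38.8 in wild-type MZB. KO FoB held 15.7, 16.6 and 13.8 mRNA per cell and wild-type FoB 18.2 and 15.3. All MZB libraries lay above all FoB libraries, and per cell KO MZB lay above wild-type MZB. That log2 difference of KO over wild type was 0.26, below the median of all genes of 0.32, and did not pass. KO MZB had 2.88-fold more per cell than KO FoB, and wild-type MZB 2.22-fold more than wild-type FoB. Part of this exceeded the gap of the average gene, since the rescaled log2 differences were 0.26 ± 0.064 in the knockout and 0.26 ± 0.064 in the wild type (limma adjusted p = 0.00935 and 0.0061), a 1.2-fold difference in each. The knockout call was lost without KO MZB library 1 (0.22) and the wild-type call without wild-type FoB library 1 (0.22). KO over wild type did not pass, at -0.071 rescaled in MZB (interval -0.21 to 0.071) and -0.066 in FoB (interval -0.21 to 0.075). Of 19 cyclase genes the table lists Adcy7 and Adcy3, and Adcy7 made up 95.4% to 96.9% of their summed mRNA per cell over the 10 libraries.

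Prkaca encodes the kinase subunit that cAMP sets free. Its values were 5.75 and 8.02 mRNA per cell in KO MZB and 3.84, 6.41 and 5.1 in wild-type MZB. They were 3.29, 3.96 and 2.8 mRNA per cell in KO FoB and 3.68 and 3.25 in wild-type FoB. KO and wild type overlapped in both cell types. MZB over FoB passed per cell, with log2 differences of 0.97 ± 0.20 in the knockout and 0.50 ± 0.20 in the wild type (limma adjusted p = 4.26e-06 and 0.0155). The sign turned after rescaling, to -0.22 ± 0.11 in the knockout, which did not pass (interval -0.47 to 0.035), and -0.33 ± 0.11 in the wild type (limma adjusted p = 0.0344). In the wild type the call per cell was lost without MZB library 2 (0.33) or FoB library 2 (0.42), and the rescaled call without MZB library 1 (-0.25), MZB library 3 (-0.32), FoB library 1 (-0.40) or FoB library 2 (-0.26). KO over wild type in MZB was 0.42 per cell (interval 0.029 to 0.81) and 0.10 rescaled (interval -0.15 to 0.35), and did not pass; without wild-type MZB library 2 the value per cell was 0.59 and passed. Prkaca made up 32.1% to 44.3% of the summed mRNA per cell of the catalytic genes Prkaca and Prkacb.

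Other genes of the pathway also differed between the cell types. Among the remaining PDE genes, Pde4a and Pde8a, both of which encode cAMP-specific enzymes, were higher in MZB on both scales. Pde4a had 7.01 and 9.61 mRNA per cell in KO MZB and 4.71, 5.88 and 6.31 in wild-type MZB, against 0.667, 0.568 and 0.643 in KO FoB and 0.512 and 0.479 in wild-type FoB. Its rescaled ratio of MZB over FoB was 5.44 in the knockout and 6.11 in the wild type (log2 differences 2.12 ± 0.13 and 2.19 ± 0.13). Pde8a had 7.14 and 7.12 mRNA per cell in KO MZB, 5.19, 5.68 and 5.36 in wild-type MZB, 1.38, 1.27 and 1.2 in KO FoB and 0.762 and 0.678 in wild-type FoB. Its rescaled ratio was 2.31 in the knockout and 4.08 in the wild type. In FoB, Pde8a was 1.85-fold higher in KO after rescaling (log2 difference 0.73 ± 0.11; limma adjusted p = 0.0107) but did not pass per cell (0.63 ± 0.18; adjusted p = 0.0858); it is named here after its values were seen, as the 1 gene of the PDE list called in that comparison. Over the list, 4 higher and 2 lower of 9 were called in wild-type MZB over FoB after rescaling, beside 25% and 25.1% of all genes. The median was 0.026, against 0.0023 for all genes. Per cell 8 higher and 1 lower were called in the knockout, beside 97.3% and 0.444% of all genes. In the wild type 7 higher and 1 lower were called per cell, beside 84.2% and 1.67%. Those lower after rescaling were Pde2a (-3.32 rescaled, -2.56 per cell) and Pde4b (-0.76 rescaled, 0.069 per cell). Per cell, 3 of the list were higher in KO than in wild-type MZB, beside 13.3% of all genes. They were Pde2a and, named after their values were seen, Pde4a (0.53) and Pde1b (0.61). Pde4a and Pde1b did not pass after rescaling (0.21 and 0.29).

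The counts of the lists that follow stand beside 18.1% of all genes higher and 17.2% lower in the knockout and 25% and 25.1% in the wild type after rescaling, and beside 97.3% and 0.444% in the knockout and 84.2% and 1.67% in the wild type per cell. The protein kinase A list (7 of 10 genes in the table) had 2 higher and 2 lower in KO MZB over FoB after rescaling and 2 higher and 3 lower in the wild type, with medians of -0.061 and -0.29 beside 0.0015 and 0.0023 for all genes. Per cell it had 7 higher and 0 lower in the knockout and 6 higher and 0 lower in the wild type. Those lower in the wild type were Prkar1a (-0.46 rescaled, 0.40 per cell), Prkx (-0.38 rescaled, 0.40 per cell) and Prkaca (-0.33 rescaled, 0.50 per cell), each of opposite sign on the 2 scales; here and in the lists that follow, such genes are named after their values were seen. Prkar2a, a regulatory subunit that holds the kinase inactive, had rescaled values of 1.42 and 1.53 in KO MZB and 1.4, 1.5 and 1.51 in wild-type MZB, against 0.716, 0.726 and 0.544 in KO FoB and 0.653 and 0.711 in wild-type FoB. Pkib, an inhibitor of the free catalytic subunit, was 1.52-fold higher in MZB than in FoB in the knockout and 1.63-fold in the wild type, after rescaling. The A-kinase anchoring protein list (10 of 16) had 4 higher and 3 lower in the knockout and 4 higher and 2 lower in the wild type after rescaling, and per cell 10 higher and 0 lower in the knockout and 8 higher and 1 lower in the wild type. Lower in wild-type MZB were Akap12 (-1.28 rescaled, -0.59 per cell) and Akap13 (-0.59 rescaled, 0.27 per cell). Akap17b, Akap5 and Akap7 were higher in MZB in both genotypes on both scales, at rescaled log2 differences in the knockout of 0.96, 0.53 and 0.52, and in the wild type of 1.14, 0.88 and 0.66. Akap8l passed in the knockout (0.23 rescaled). The calls of Akap5 and Akap7 in the knockout were lost without KO MZB library 1, and that of Akap8l without KO MZB library 1, KO MZB library 2 or KO FoB library 2.

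Akap12, which encodes the scaffold gravin, was the anchoring gene that changed with the knockout in MZB. It had 2.38 and 2.96 mRNA per cell in KO MZB and 0.697, 1.15 and 0.745 in wild-type MZB, 1.89, 2.06 and 1.69 in KO FoB and 1.68 and 1.2 in wild-type FoB. Like Pde2a it was low in wild-type MZB, and KO MZB stood above it without overlap. The ratio of KO over wild type in MZB was 3.09 per cell and 2.48 rescaled (log2 differences 1.37 ± 0.19 and 1.02 ± 0.11; limma adjusted p = 3.81e-08 and 0.000971). Wild-type MZB over wild-type FoB was -0.59 ± 0.19 per cell and -1.28 ± 0.11 rescaled, and the value per cell was -0.39 without wild-type FoB library 1 and did not pass. The shifts of MZB, FoB and other cell markers in KO MZB given beside Pde2a are of the same libraries, and their part in the changes of Akap12, Rapgef3 and Sik3 was not tested.

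Rapgef3, which encodes the cAMP-activated exchange factor EPAC1, was the gene of the pathway that was called higher with the knockout in both cell types on both scales. It was rare in MZB, with 0.372 and 0.455 mRNA per cell in KO MZB (24 and 32 reads) and 0.00922, 0.0371 and 0.0792 in wild-type MZB (1, 3 and 6 reads). In FoB it had 0.94, 1.52 and 0.766 mRNA per cell in KO (101, 193 and 124 reads) and 0.278 and 0.22 in the wild type (37 and 31 reads). The groups did not overlap in either cell type. KO over wild type in FoB was 4.32-fold per cell and 4.42-fold rescaled (log2 differences 1.29 ± 0.19 and 1.48 ± 0.17; limma adjusted p = 2.32e-06 and 0.0022). The dendritic cell marker Flt3 moved with it, at rescaled values of 0.561, 0.673 and 0.602 in KO FoB and 0.119 and 0.141 in wild-type FoB (log2 difference 1.08 rescaled and 0.88 per cell, both called), and its part in the FoB rises of Rapgef3 and Pde8a was not tested. Cst3, the other gene of that list in the table, did not pass in FoB (0.20 rescaled), and the 2 summed to 19.4, 20.3 and 16.5 in KO FoB and 15.8 and 15.8 in wild-type FoB. In MZB the log2 differences of Rapgef3 were 1.06 ± 0.19 per cell and 0.74 ± 0.17 rescaled (limma adjusted p = 2.70e-05 and 0.0323), on values near or under the pseudocount, and the rescaled call was lost when any of the 5 MZB libraries was left out. MZB over FoB was -1.72 in the knockout and -0.97 in the wild type after rescaling.

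Of the remaining lists, the 6 other effectors and exporters in the table (of 10 listed) had 1 higher and 4 lower in wild-type MZB over FoB after rescaling, against 2 higher and 1 lower per cell. The lower ones after rescaling were Rapgef3 (-0.97 rescaled, -0.69 per cell), Rapgef4 (-0.64 rescaled, 0.077 per cell), Rapgef6 (-0.45 rescaled, 0.39 per cell) and Rapgef2 (-0.35 rescaled, 0.28 per cell). Abcc5, a cyclic nucleotide exporter, was higher in MZB (0.43 in the knockout, lost without KO MZB library 2, and 0.50 in the wild type). All 11 CREB family and coactivator genes are in the table, with 0 higher and 5 lower in KO MZB over FoB and 1 higher and 6 lower in the wild type after rescaling, but 11 higher and 0 lower in the knockout and 6 higher and 0 lower in the wild type per cell. Lower after rescaling in the wild type were Crebbp (-0.59 rescaled, 0.26 per cell), Ep300 (-0.54 rescaled, 0.31 per cell), Crtc3 (-0.49 rescaled, 0.22 per cell), Sik3 (-0.46 rescaled, 0.32 per cell), Sik2 (-0.34 rescaled, 0.34 per cell) and Sik1 (-0.32 rescaled, 0.46 per cell). The higher one was Crem, a CREB relative with activator and repressor forms (0.38, lost without wild-type FoB library 1). Sik3, a kinase that protein kinase A restrains, was higher in KO than in wild-type MZB, at 0.63 ± 0.19 per cell and 0.32 ± 0.080 rescaled (limma adjusted p = 0.0161 and 0.0451). The call per cell was lost without KO MZB library 2 or wild-type MZB library 1, and the rescaled call when any of the 5 MZB libraries was left out. The cAMP-induced target list (8 of 17), which holds Pde4d and Crem too, had 1 higher and 3 lower in the knockout and 2 higher and 5 lower in the wild type after rescaling, with medians of -0.042 and -0.46, and 7 higher and 0 lower in the knockout and 4 higher and 0 lower in the wild type per cell. Lower in the wild type after rescaling were Junb (-1.12 rescaled, -0.30 per cell), Per1 (-0.82 rescaled, -0.027 per cell), Pde4b (-0.76 rescaled, 0.069 per cell), Rgs2 (-0.60 rescaled, 0.13 per cell) and Sik1 (-0.32 rescaled, 0.46 per cell). Stimulatory and inhibitory G alpha genes (4 of 7) had 0 higher and 2 lower in the wild type after rescaling, namely Gnai2 (-0.75 rescaled, 0.13 per cell) and Gnas (-0.24 rescaled, 0.62 per cell), and 3 higher and 0 lower per cell. Gpr65, which encodes a proton-sensing receptor coupled to the stimulatory G protein, was higher in wild-type MZB after rescaling (0.36, lost without wild-type MZB library 2 or wild-type FoB library 1). For KO over wild type after rescaling, these lists had 0 to 1 genes called higher and 0 to 1 lower in MZB, beside 3.38% and 1.87% of all genes. In FoB they had 0 to 1 higher and 0 lower, beside 0.599% of all genes in either direction.

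**Figure D4:**
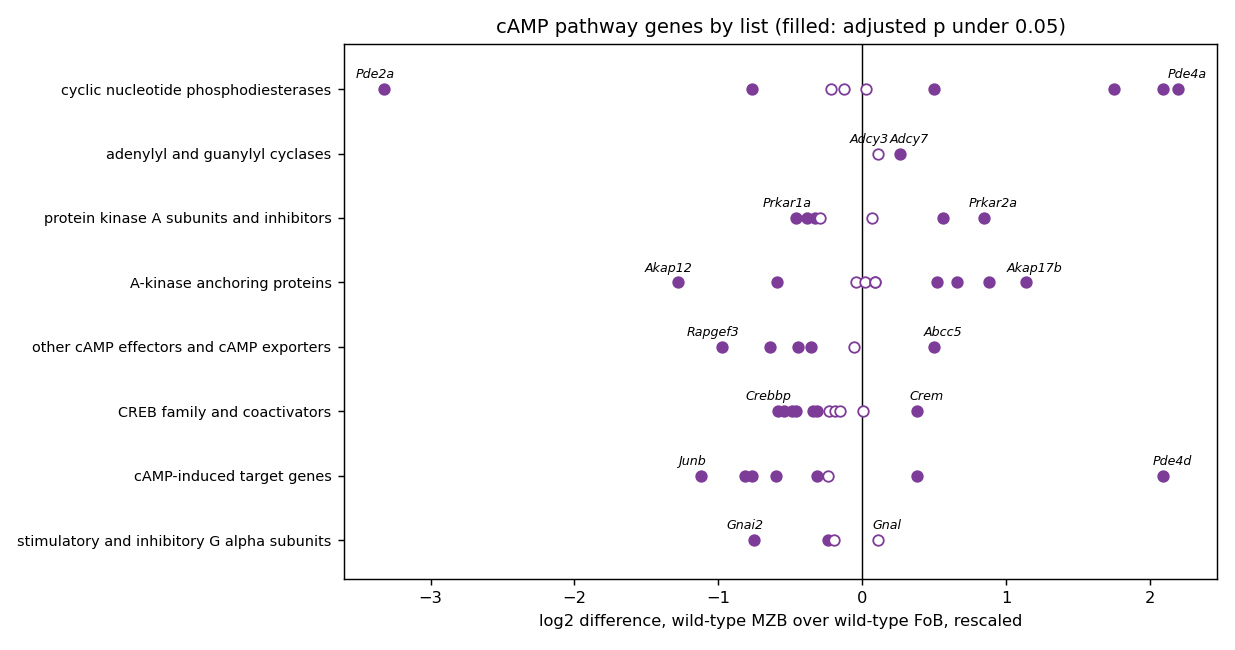
Rescaled log2 differences of wild-type MZB over wild-type FoB for the genes of 8 cAMP pathway lists that are in the table; each point is 1 gene, filled points passed an adjusted p of 0.05, and the lowest and highest gene of each list are named. Pde2a, at -3.32, is the lowest point of the plot, and Pde4a, at 2.19, the highest, just above Pde4d.

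The genes whose rescaled log2 values ran most like those of each member over the 10 libraries were looked up among 5337 genes with a mean of at least 3 mRNA per cell. For Pde2a they were Arhgef3 (r = 0.999), Ripor2 (r = 0.999) and Add1 (r = 0.999). For Pde4d they were Ackr2 (r = 0.997), AW011738 (r = 0.997) and Tsga13 (r = 0.997), and for Pde4b Rnf144a (r = 0.997), Cmtm6 (r = 0.997) and Fam107b (r = 0.997). The matches of Pde3b were Smarca2 (r = 0.962), Immp1l (r = 0.957) and Phpt1 (r = 0.951), and those of Adcy7 Araf (r = 0.991), Ankzf1 (r = 0.99) and Phkg2 (r = 0.988). Prkaca ran most like Psmb10 (r = 0.96), Pcbp1 (r = 0.957) and Lrrc59 (r = 0.951), and Pde7a most like Cdkn1b (r = 0.889), Vps54 (r = 0.886) and Rabgap1l (r = 0.878). The libraries fall into 2 cell types, so a gene that differs between them by a like amount has a high Pearson r. The members with a large cell-type difference had the closest matches, and Pde7a, with a small one, the loosest.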

How the data were processed

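Libraries were made from poly(A) RNA of 50000 sorted cells with a stranded KAPA kit, per the labels' protocols. The deposited table gives, as a signal never below 0, the authors' mRNA per cell for 9690 genes by Entrez identifier; 9681 matched a symbol in GRCm38.p6 and 9 did not. STAR and mm10 are named per the submitters' processing notes; no source used here gives the counter, the gene filter or how reads became molecules per cell. Each gene's values were multiples of the worth of 1 read, which gave whole reads for 100% of genes (largest deviation 2.9e-05 reads, tolerance 0.001); the median over genes was 184 to 319 reads, depending on the library. The worth of a read followed inverse exonic length across genes (Spearman rho 0.827, 9537 genes), so values compare genes per length. There were 0 pairs of identical libraries and 0 unused columns.

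Groups were taken from the labels. limma 3.58.1 (R 4.3.3; lmFit, contrasts and eBayes with a trend) was run on log2(value + 0.3) over all 10 libraries with 1 coefficient per group, for genes at 0.3 or more in at least 2 libraries. It was run on values per cell and after rescaling by a trimmed mean of log-ratios (trims 0.3 and 0.05; factors 0.624 to 1.76). Folds are ratios of group means. An error common to a whole library enters every gene, so p-values per cell can be too small. Alternatives were pseudocounts of 0.1 and 1, a floor of 1, no filter, the compared groups alone, no trend, the replicate block, each library left out and rescaling by the median. The fit was tested on data simulated without a shift of total mRNA between groups. That test cannot show how the p-values per cell behave under such a shift. The members, lists and tests were chosen with earlier results of these data known. All members were named; of each list, the genes that passed on both scales in 1 direction, at most 4 a comparison by rescaled p; and the 3 genes most like each member by Pearson r. The list of receptors coupled to the stimulatory G protein is not reported here in full.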

Additional observations from a re-analysis of the deposited data

Results flagged for a closer look

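The knockout effect on Pde2a differed between the cell types per cell: KO over wild type was 0.85 ± 0.19 in MZB and -0.11 ± 0.19 in FoB on the log2 scale, and the difference of these effects was 0.963 ± 0.27 (SE; limma interaction, adjusted p = 0.0358, range over the alternatives 0.00286 to 0.391). After rescaling it was 0.60 ± 0.17 (adjusted p = 0.09999). Both KO MZB libraries lay above the 3 wild-type ones, while KO and wild-type FoB overlapped. The call per cell was lost without KO MZB library 2, wild-type MZB library 1 or 3, KO FoB library 3 or wild-type FoB library 1, and with a pseudocount of 1 (0.69). Of 8 FoB marker genes 4 had a called difference of the same sign per cell, beside 2.02% of all genes. The part of that marker shift was not tested.

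Akap12 was the other pathway gene named in the report with such a difference per cell, at 1.03 ± 0.27 (limma interaction, adjusted p = 0.018), from 1.37 ± 0.19 in MZB and 0.34 ± 0.19 in FoB. After rescaling it was 0.62 ± 0.16 and did not pass (adjusted p = 0.0824). The call per cell was lost without KO MZB library 2 (0.89), wild-type MZB library 1 (0.93) or wild-type FoB library 1 (0.83).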

How the results depend on the processing

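The opposite cell-type patterns of Pde2a and Pde4d kept their direction and their call under every alternative run, with rescaled log2 differences of wild-type MZB over FoB from -3.62 to -2.65 for Pde2a and from 1.31 to 2.58 for Pde4d. Of 929 recomputed member values, 857 kept direction and call, 31 lost a call and 2 gained one. Another 39 not called in either fit changed sign, and 0 called values reversed. The floor of 0.3 left all 9690 genes in the main fit. The alternative with no filter is therefore the same fit, and its values among the 929 could not change. Knockout effects were less stable. The number of members called for KO over wild type in MZB per cell (1) was 0 to 3 when leaving out 1 library. After rescaling (2) it was 1 with a pseudocount of 0.1, 1 with a pseudocount of 1, 1 with a floor of 1, 0 with the replicate block, and 0 to 1 when leaving out 1 library. For the difference between knockout effects per cell (1) it was 0 with a pseudocount of 1, 0 with the replicate block, and 0 to 1 when leaving out 1 library. The other member counts stayed within 1.5 times. With the block, the rescaled log2 differences of KO over wild type in MZB were 0.46 for Pde2a and -0.44 for Pde4d, and the difference between effects on Pde2a per cell was 0.75, none of them called. The cause of these changes was not tested. Over all genes, KO over wild type in MZB called 1356 per cell, 528 with the replicate block, 2078 with a pseudocount of 1 and 269 to 2791 without 1 library, and 509 rescaled, 270 with the block, 906 with the compared groups alone and 56 to 264 without 1 library. In FoB it called 69 per cell and 39 to 106 without 1 library, and 58 rescaled, 30 with the compared groups alone, 35 with the block and 25 to 71 without 1 library. MZB over FoB rescaled in the knockout called 3413, and 1992 without KO MZB library 1. The difference between effects called 227 per cell, 134 and 421 with pseudocounts of 0.1 and 1, 110 with the block and 59 to 744 without 1 library, and 30 rescaled, 4 with the block and 1 to 336 without 1 library. Same-numbered libraries correlated at -0.114 to 0.187 in their deviations, with 2 shared numbers a comparison. In a group of 2 libraries the deviations mirror each other. These correlations therefore cannot tell whether same-numbered libraries share more than a number. A group left with 1 library is assumed to vary like the others. The planned limma voom on reads is not reported, since a read is worth a different amount for each gene and the values are not counts. Pde4d in FoB (38 to 65 reads) and Rapgef3 in MZB (1 to 32 reads) are limited by depth.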
